A study of Oryza sativa with 20 samples.

Results

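The comparison sets rice lines that carry a steroid-inducible copy of CRL1 (CROWN ROOTLESS1), but had not yet been given the steroid, against a line with the empty vector, and asks whether the construct acted before induction. It uses 8 of the 20 arrays of the series: the 6 mock arrays of 3 independent CRL1 lines (lines 1, 2 and 3, each at 4 h and 8 h) and the 2 mock arrays of the empty-vector line (4 h and 8 h), matched by time. All plants were crl1 mutants of Oryza sativa cv. Taichung 65, and every array read RNA of stem bases of seedlings 8 days old, with 20 stem bases pooled in each RNA. The CRL1 lines carry pINDEX2-CRL1 and the control carries pINDEX2 with no insert; in this vector dexamethasone, a synthetic glucocorticoid, switches on the inserted gene. The lines were chosen as single-locus homozygous T2 lines, and the CRL1 lines also because they made CRL1 transcript and crown roots after dexamethasone. Mock medium held ethanol alone, and the treated arrays of the same lines held 10 µM dexamethasone. The empty-vector control is 1 transformed line with 1 array per time, so its own line-to-line spread was not measured and was taken to be like that of the CRL1 lines; the crl1 mutant with no construct (4 arrays, called the untransformed line below) serves only as a further reading. The labels do not say whether the arrays of a line at 4 h and 8 h came from separate plantings, so p-values measure the spread between these samples.

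CRL1 encodes a LOB-domain transcription factor that acts downstream of auxin and is needed for crown roots, the shoot-borne roots that form the bulk of a rice root system. Crown root primordia arise in the stem base next to the vascular ring, and crl1 mutants fail to start them. Genes known from rice to act in this process include the homeobox genes QHB, a quiescent-centre marker, and WOX11, which promotes crown root growth, and response regulators of cytokinin signalling such as RR2. A construct that leaked would be read as a higher level of CRL1-induced genes in lines that had received no inducer. No probe set on the array was paired with CRL1 in the annotation used here, so the transcript of the transgene itself was not read.

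Uninduced CRL1 lines and the empty-vector line differed at very few probe sets. Over both times 7 of 32836 tested probe sets passed the test, or 0.0213% (limma, adjusted p under 0.05), 6 of them higher (0.0183%) and 1 lower (0.00305%) in the CRL1 lines. They belong to 4 annotated genes, LOC4340325, LOC4326347, LOC4327632 and LOC4331398, none of which has a gene name in the tables used, and to 2 probe sets with no listed gene. The median log2 difference over all tested probe sets was 0.0068, and 942 probe sets had an unadjusted p under 0.05, against 1642 expected from that threshold alone. Signals are MAS5 values scaled to the same trimmed mean on every array, and differences are on the log2(signal + 1.7) scale, which understates the fold of dim probe sets. The 8 arrays had median signals of 10.1 to 12.5, with a mean of 11.05, and a signal below that is called dim here. Arrays of different lines at the same time correlated at 0.966 to 0.975 across probe sets, and arrays of 1 line at its 2 times at 0.967 to 0.977, with all probe sets sharing the arrays.

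LOC4340325 showed the largest difference of either direction among the called probe sets. Its probe set Os.10266.1.S1_at read 13.1 and 3.4 in the empty-vector line at 4 h and 8 h. In the CRL1 lines it read 323.8 and 344.0 in line 1, 292.9 and 281.8 in line 2, and 302.2 and 329.6 in line 3. All 6 CRL1 arrays thus lay far above both control arrays, with no overlap, and the 3 lines were close to each other. The difference was 5.17 ± 0.15 (log2 ± SE, adjusted p = 2.45e-09 in limma). It was 4.38 at 4 h and 5.97 at 8 h, where the control array was dim, so its size rests in part on the offset. The untransformed line also had little of it, at 8.9 and 9.4 in its mock arrays, and the dexamethasone arrays of the CRL1 lines read 286.9 to 387.3, in the same range as the mock arrays. A second probe set of the same gene, Os.37590.1.S1_at, read 39.3 and 42.6 in the empty-vector line and 35.1 to 48.2 in the CRL1 lines, a difference of -0.04 ± 0.19, so the probe sets of this gene disagree.

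LOC4326347 and LOC4327632 were low in the empty-vector line and higher in every other line, the untransformed one included. For LOC4326347 the empty-vector line read 8.9 and 9.3, and the CRL1 lines read 113.0 and 95.0 (line 1), 111.9 and 111.4 (line 2) and 93.4 and 108.3 (line 3). The groups did not overlap, and the difference was 3.31 ± 0.16 (adjusted p = 5.39e-07, limma); the untransformed line stood higher still, at 137.8 and 230.4. The control readings of LOC4326347 are dim, and the difference was 3.53 with no offset and 2.49 with the offset at the median. For LOC4327632 the empty-vector line read 1.1 and 5.4, the CRL1 lines read 24.9 and 33.5, 33.3 and 38.2, and 27.2 and 42.8 in the same order, and the untransformed line read 29.5 and 30.4. Again the CRL1 arrays did not overlap those of the empty vector, and they lay near the untransformed ones; the difference was 2.95 ± 0.25 (adjusted p = 2.9e-04, limma). Both control readings are dim, so its size rests on the offset, with 3.75 for no offset and 1.59 for one at the median, and with line means it did not pass (adjusted p = 0.108). The probe set OsAffx.4280.2.A1_at, with no listed gene, was the 1 lower call and had the opposite pattern: 193.7 and 216.1 in the empty-vector line, 23.5 and 11.9, 11.4 and 11.2, and 14.1 and 13.3 in the CRL1 lines, and 28.4 and 35.9 in the untransformed line. For this probe set the CRL1 lines minus the empty-vector line gave -3.74 ± 0.31 (adjusted p = 2.9e-04, limma). At these 3 probe sets the mock arrays of the empty-vector line lay outside the range of the other 4 lines.

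LOC4331398 and Os.56053.1.S1_at were read in every transformed line and hardly at all in the untransformed line. The probe set Os.43929.1.S1_s_at of LOC4331398 read 313.1 and 339.3 in the empty-vector line, and 1247.8 and 1092.6, 1035.5 and 1095.4, and 1090.9 and 1109.1 in CRL1 lines 1, 2 and 3. Its second probe set, Os.8823.1.S1_at, read 183.0 and 181.8 in the empty-vector line and 580.6 to 764.3 in the CRL1 lines. Both put the CRL1 lines above the empty-vector line without overlap, by 1.76 ± 0.18 (adjusted p = 0.00203) and 1.84 ± 0.20 (adjusted p = 0.00327, limma), while the untransformed line read 1.4 to 10.0 over both probe sets and its 4 arrays. Without CRL1 line 1 the adjusted p became 0.142 and 0.229, and without line 3 it became 0.0589 and 0.0546, with the size of the difference kept between 1.73 and 1.83. Os.56053.1.S1_at read 96.2 and 82.2 in the empty-vector line, 195.3 to 248.5 in the CRL1 lines and 1.1 to 4.7 in the mock arrays of the untransformed line. Its difference of 1.26 ± 0.18 passed the threshold narrowly (adjusted p = 0.0475, limma) and failed it when a CRL1 line, whichever of the 3, was left out (adjusted p 0.186 to 0.607).

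**Figure D1:**
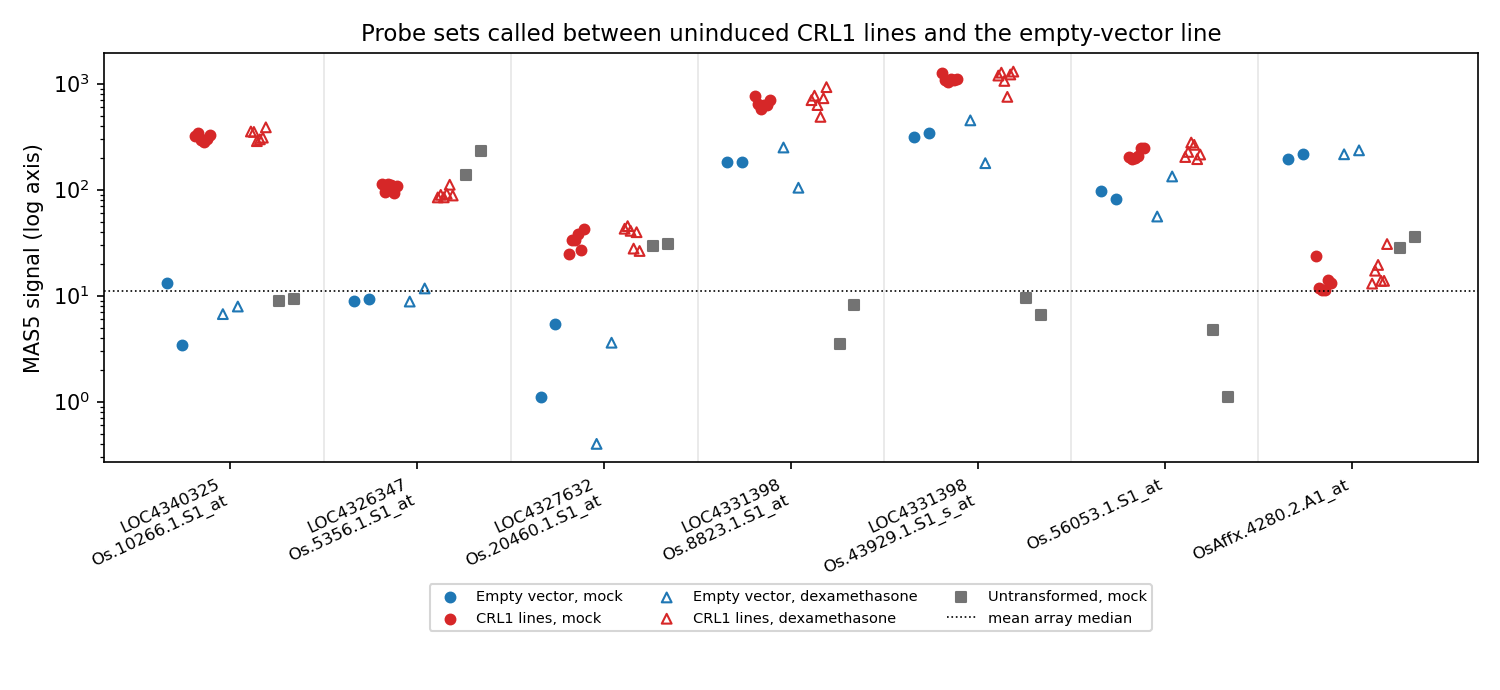
MAS5 signal (log axis) of the 7 called probe sets in single arrays: filled circles are mock arrays, open triangles dexamethasone arrays, blue the empty-vector line, red the 3 CRL1 lines, grey squares the mock arrays of the untransformed line, and the dotted line the mean array median of 11.05. The red circles and triangles of each probe set lie in the same range, and the grey squares lie with the blue points for LOC4340325, nearer the red ones for LOC4326347, LOC4327632 and OsAffx.4280.2.A1_at, and below both for LOC4331398 and Os.56053.1.S1_at.

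The 7 called differences had the same sign at both times, and 3 of them, LOC4340325, LOC4326347 and OsAffx.4280.2.A1_at, passed at each time, while Os.56053.1.S1_at and the probe set Os.8823.1.S1_at of LOC4331398 passed at neither. OsAffx.4280.2.A1_at did not pass at 4 h with a CRL1 line left out, whichever it was (adjusted p 0.128 to 0.156, limma), or under the stricter filter (0.0817), nor at 8 h without line 1 (0.105). LOC4327632 also missed the threshold at 4 h with each line left out (adjusted p 0.0542 to 0.195), and Os.43929.1.S1_s_at without line 1 (0.762) or line 3 (0.545). At 4 h 5 probe sets passed (0.0152% of those tested), 4 higher (0.0122%) and 1 lower (0.00305%), and at 8 h 4 (0.0122%), 3 higher (0.00914%) and 1 lower; the 5 of 4 h and 3 of the 4 of 8 h are among the 7. The fourth at 8 h, Os.43892.1.S1_at, has no listed gene and read 26.0 and 3.5 in the empty-vector line against 24.8 to 42.7 in the CRL1 lines. The low 8 h array of the empty-vector line sets it apart, and over both times it did not pass (adjusted p = 0.186, limma). Unlike the 7, Os.43892.1.S1_at rose after dexamethasone within the CRL1 lines at 8 h, by 1.09 (adjusted p = 0.0113, limma), as 4.84% of all tested probe sets did. At 4 h its response was -0.10 and did not pass. Whether its 8 h mock difference came from a leak was not tested. For the change of the difference from 4 h to 8 h, 0 probe sets passed in limma (0%), and 587 had an unadjusted p under 0.05. In the dexamethasone arrays of the same lines, which are separate arrays, 568 probe sets differed from the empty vector (1.73%), 459 higher (1.4%) and 109 lower (0.332%), and the 7 of the mock arrays were all among them with the same sign. That count was 319 without CRL1 line 1 and 271 without line 2, and the 4 h count of the mock arrays was 3 without line 1 and 3 without line 2. Within the CRL1 lines 0 of the 7 passed for the response to dexamethasone at 4 h or at 8 h (limma), where 0.898% and 9.86% of all tested probe sets did, so for so few probe sets the count is near the background; the largest of these responses was that of OsAffx.4280.2.A1_at at 8 h, 0.62 (adjusted p = 0.314).

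The genes next to the called ones were read as well. Up to 3 genes on either side of the 4 called genes, in the gene order of the RefSeq annotation (ASM3414082v1), were covered by 17 tested probe sets of 13 genes. None of the 17 was called, as for nearly all probe sets (0.0213% called). Of them 2 lay above the empty-vector array of the same time in all 6 arrays (8.03% of all tested), those of LOC4340327 and LOC4331397, and 2 below it (6.2%), those of RFS and LOC4326348. Their differences ran from -0.59 for RFS, a gene 2 places from LOC4327632, to 0.37, and without RFS the lowest was -0.17. RFS read 339.7 and 309.9 in the empty-vector line and 163.4 to 271.6 in the CRL1 lines, which did not overlap the control arrays.

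Among reporter probe sets, which the array carries for sequences used in transgenes, a few gave bright signals in transformed plants. Of 64 such probe sets, 4 lay above the array median on all 8 mock arrays, while the rest read at most 26.4 on them; the tables used here do not annotate them, so they are called reporter A and reporter B (3 probe sets whose names share 1 source sequence). Their highest signal in the untransformed line was 36. Reporter A read 5216 and 5734 in the empty-vector line and 5040 to 6638 in the CRL1 lines, a difference of 0.07 ± 0.16, so the 2 kinds of line overlapped. Reporter B, by its first probe set, read 997.3 and 685.1 in the empty-vector line, and 2270 and 1808, 1569 and 1527, and 1946 and 2555 in CRL1 lines 1, 2 and 3. The CRL1 arrays all lay above the control arrays, as they also did for the other 2 probe sets of reporter B. The 3 differences were 1.21 ± 0.39, 1.46 ± 0.45 and 1.30 ± 0.39; their unadjusted limma p-values were 0.0093, 0.0066 and 0.0052, and none passed the adjusted threshold (adjusted p = 1.0 for each). In the dexamethasone arrays the same differences were 0.35, 0.51 and 0.38.

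**Figure D2:**
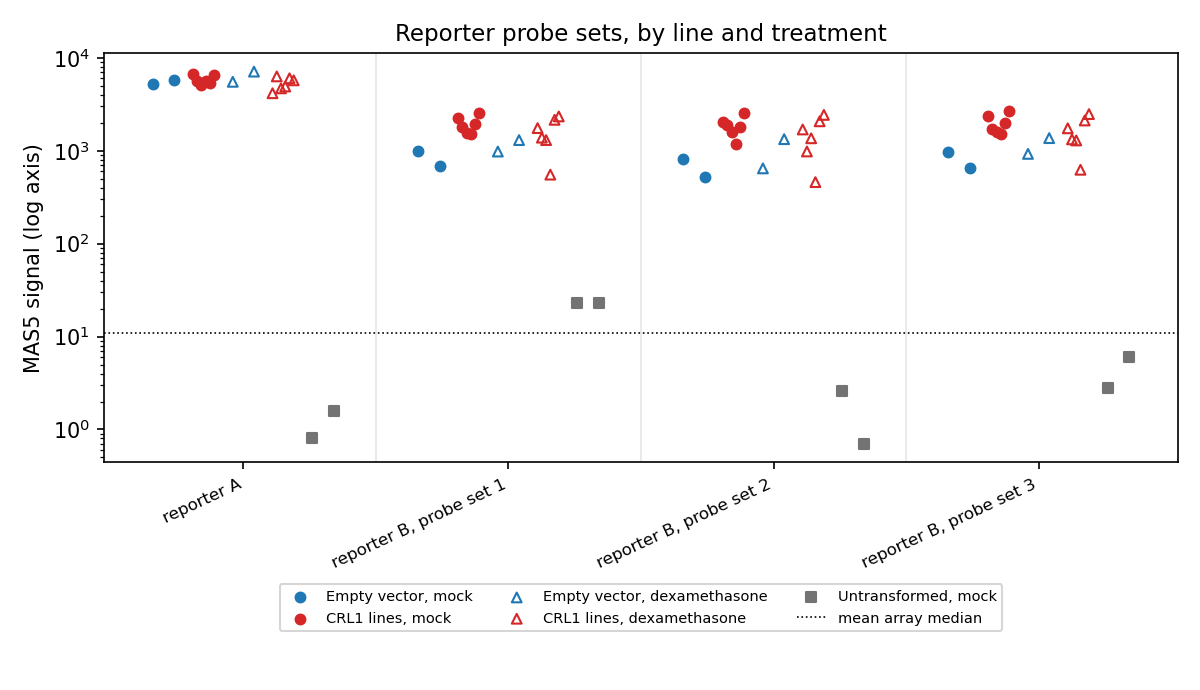
MAS5 signal (log axis) of the 4 bright reporter probe sets in single arrays, with colours and symbols as for the called probe sets. Reporter A is level across transformed lines, reporter B is higher in the mock arrays of the CRL1 lines than in those of the empty vector, and the untransformed line is low for all 4.

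Single pairs of lines were set beside each other. Their counts come from a fit of its own and are no scale for the calls between construct groups. With each pair of lines compared over its 2 mock arrays, a fit whose p-values rest on the spread between arrays with 3 residual degrees of freedom, the empty-vector line differed from CRL1 lines 1, 2 and 3 at 61 (0.186%), 85 (0.259%) and 49 (0.149%) probe sets. The CRL1 lines differed among themselves at 69 (0.21%, line 2 minus line 1), 98 (0.298%, line 3 minus line 1) and 76 (0.231%, line 3 minus line 2). The pairs with the empty vector and the pairs among CRL1 lines thus gave counts in overlapping ranges, and so did their median absolute log2 differences, 0.156 to 0.185 with the empty vector and 0.174 to 0.182 among CRL1 lines. These pairs share lines and are given side by side, with no test between them.

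**Figure D3:**
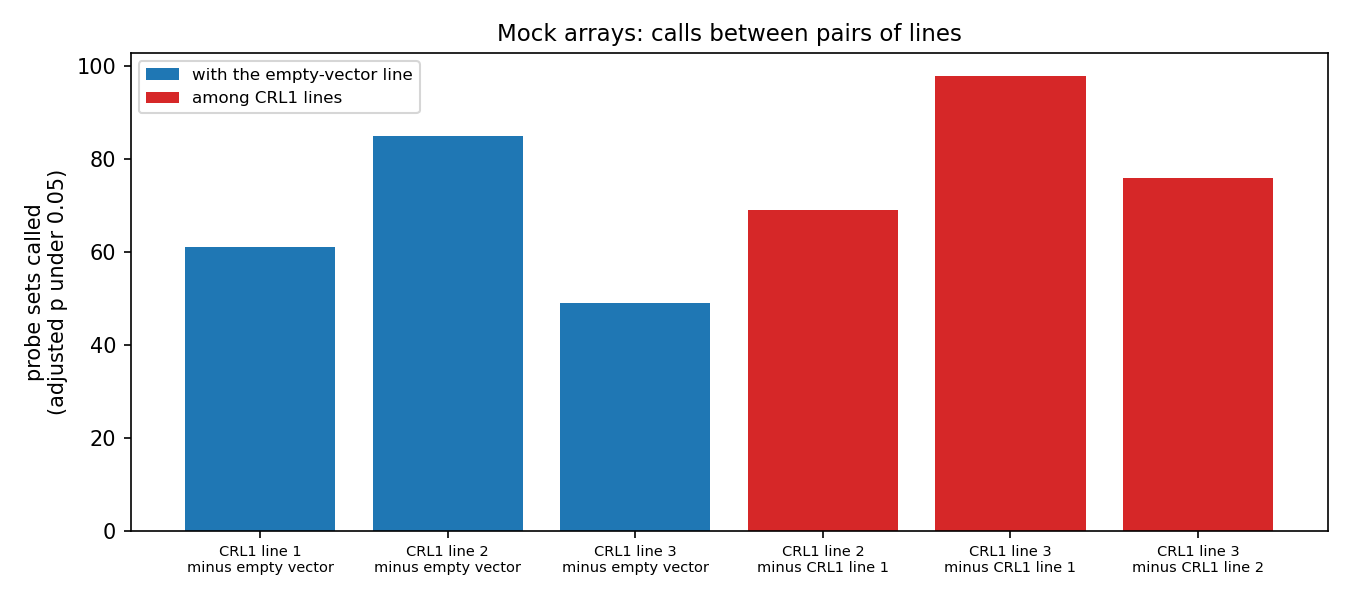
Number of probe sets called (limma, adjusted p under 0.05) between each pair of lines in mock arrays, out of 32836 tested. Blue bars are the 3 pairs with the empty-vector line (49 to 85 calls) and red bars the 3 pairs among CRL1 lines (69 to 98 calls).

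Some genes set a single CRL1 line apart before induction; those given here were chosen after their values were seen. JAZ2, a repressor of jasmonate signalling, read 106.4 and 110.7 in line 1 and at most 5.7 in the mock arrays of the other transformed lines. With dexamethasone line 1 read 208.6 and 84.5, and the other transformed lines at most 9.0. The enzyme gene 2ODD33 was low in line 2, at 40.7 and 26.5, against 162 to 255.1 in every array of the other 4 lines, and it was low there with dexamethasone too, at 30.0 and 30.7. PBZ1, a pathogenesis-related gene, read 1408 and 972.5 in line 1, 194.1 and 150.6 in line 2, and 467.9 and 460.8 in line 3, so each line had its own level, and the empty-vector line read 801.3 and 409.6.

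Nicotianamine synthase genes, whose product chelates iron and zinc for transport, also differed between lines; the genes are close paralogs, so their probe sets may share signal. NAS1 read 125.3 and 354.1 in the empty-vector line, 118.7 and 50.3 in line 1, 18.9 and 17.0 in line 2, and 26.5 and 33.9 in line 3. NAS2 followed the same order, with 214.0 and 507.8, 236.3 and 143.5, 21.6 and 21.0, and 38.6 and 66.1. Line 1 was nearer the control than lines 2 and 3 for both genes. Between construct groups the differences were -2.54 ± 0.70 for NAS1 and -2.45 ± 0.87 for NAS2 and did not pass (adjusted p = 1.0 for each in limma). In the fits of single line pairs, NAS2 was called between the empty vector and line 2 (-3.85, adjusted p = 0.00566, limma) and line 3 (-2.66, adjusted p = 0.0462), and between line 2 and line 1 (-3.01, adjusted p = 0.0197). NAS1 was called in 1 pair, line 2 minus the empty vector (-3.44, adjusted p = 0.0330, limma). The dexamethasone arrays of these lines did not keep the order. NAS1 read 75.7 and 21.0 there in the empty-vector line and 173.4 and 28.5 in line 2, and NAS2 read 116.4 and 45.2 against 258.9 and 55.0.

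Genes that rose after dexamethasone in the CRL1 lines were not higher in these lines before induction by the test. A list of 15 such genes, known from earlier results on these arrays, had 0 calls in the mock difference (0 of 15, against 0.0213% of all tested probe sets), a median of 0.05 against 0.0068 for all tested, and 10 of 15 above 0; 1 of 15, EXPB18, had an unadjusted p under 0.05, and it was lower in the CRL1 lines. None of the 15 had all 6 CRL1 arrays above the empty-vector array of the same time, which 8.03% of all tested probe sets had, and 2 had all 6 below (6.2% of all tested). In the dexamethasone arrays 12 of the 15 passed as higher than in the empty-vector line (1.4% of all tested did), which their choice for a rise in these arrays favours. Of the 15, 9 had a mean above the dim level over the 8 mock arrays. Over those 9 the difference ran from -0.63 to 0.18, each 95% interval included 0, and the highest upper bound was 0.87, for CBL4, whose response to dexamethasone at 8 h was 4.23.

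The brighter genes of this list are given with their induced levels beside the mock ones. QHB read 28.6 and 30.6 in the empty-vector line, and 14.5 and 20.2, 13.9 and 15.1, and 22.4 and 28.3 in CRL1 lines 1, 2 and 3. All 6 CRL1 arrays were below the control array of their time, by -0.63 ± 0.38, which did not pass (adjusted p = 1.0, limma), whereas with dexamethasone the CRL1 lines read 101.2 to 342.0. GH3-8, whose enzyme ties free auxin to amino acids, read 112.2 and 104.7 in the control and 78.5 to 138.7 in the CRL1 lines, which overlapped it (0.05 ± 0.34), against 371.2 to 2022 with dexamethasone.

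The calcium sensor gene CBL4 read 13.6 and 12.7 in the control and 12.2 to 22.8 in the CRL1 lines (0.18 ± 0.32), against 78.4 to 393.2 with dexamethasone. The proline transporter gene proT read 150.8 and 136.5 in the control and 127.9 to 168.4 in the CRL1 lines (0.00 ± 0.20, 95% interval -0.43 to 0.43), and 361.9 to 834.2 with dexamethasone. For both genes the mock arrays of the CRL1 lines overlapped the control. The 15 genes were listed for their rise in these same CRL1 arrays, so mock values below the induced ones follow from that choice, which also favours low mock values. The glucanase GLU8 (0.02 ± 0.17), the homeobox gene Roc4 (0.05 ± 0.34), the cytochrome P450 gene CYP734A4 (0.08 ± 0.33), IMCEL2 (0.09 ± 0.26) and SK3 (-0.10 ± 0.31) had differences smaller than their standard error.

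Several genes of the list were dim before induction, so a small leak could not have been read from them. The cellulase Cel9A read 4.9 and 1.1 in the control and 1.2 to 5.3 in the CRL1 lines (0.09 ± 0.51), and 268.5 to 671.7 in the 8 h dexamethasone arrays. The homeobox gene hox14 read 3.0 and 1.6 in the control, and 2.1 and 10.5, 9.5 and 9.6, and 9.6 and 6.1 in lines 1, 2 and 3. That is above the control in 5 of 6 arrays, all of them dim, with a difference of 1.19 ± 0.72 and an interval of -0.38 to 2.75. The beta-expansin gene EXPB18 read 9.1 and 13.3 in the control and 0.2 to 6.4 in the CRL1 lines, lower in 6 of 6 arrays (-1.75 ± 0.81, adjusted p = 1.0 in limma). HMG1 (0.22 ± 0.47), MADS17 (0.85 ± 0.68) and C3H10 (-0.66 ± 1.06) were likewise dim, with intervals that included 0.

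**Figure D4:**
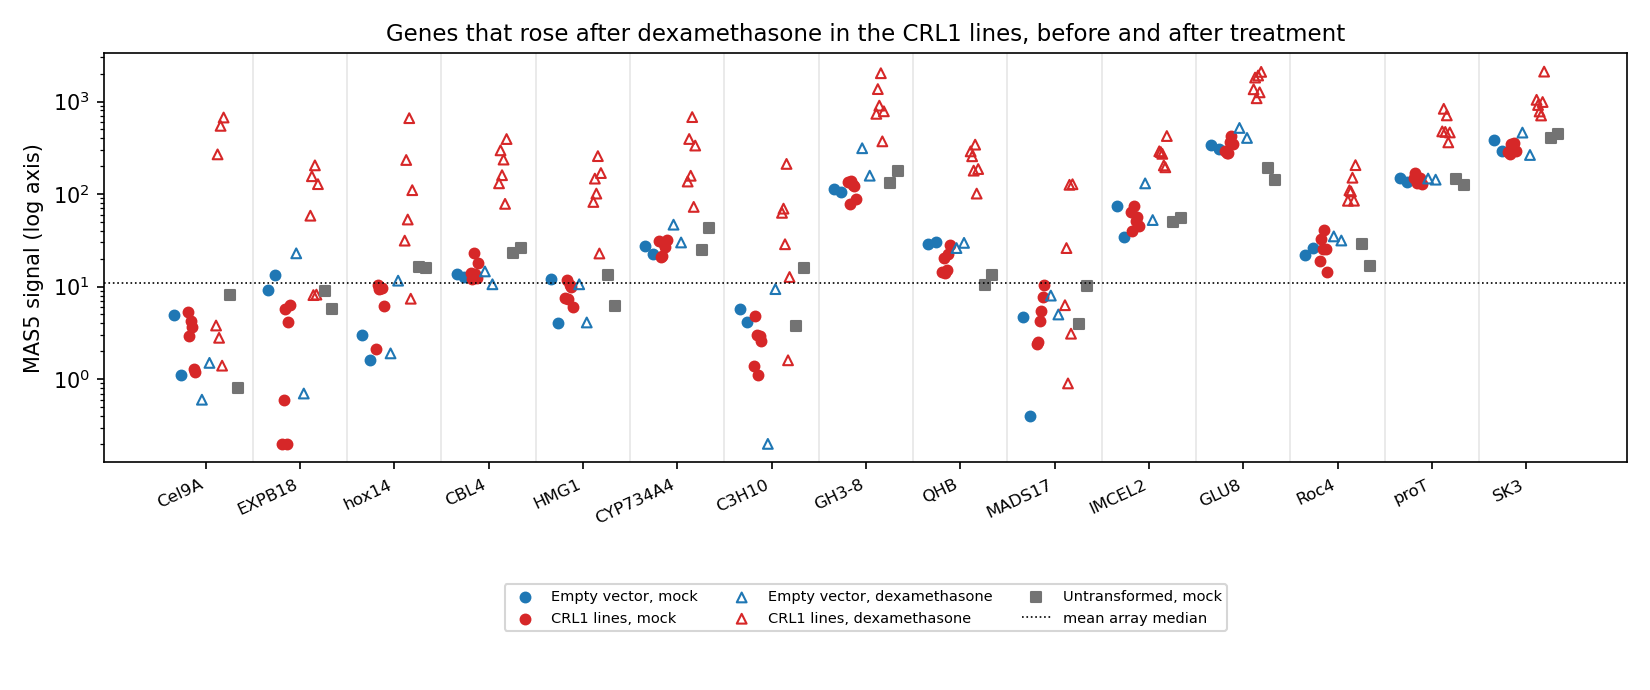
MAS5 signal (log axis) of the 15 genes that rose after dexamethasone in the CRL1 lines, with colours and symbols as for the called probe sets. The red circles of the mock arrays lie below the blue ones for QHB and overlap them for GH3-8, CBL4 and proT; Cel9A, EXPB18, hox14, HMG1, MADS17 and C3H10 lie mostly under the dotted mean array median before induction.

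The regulators of crown root formation are given by their values. Of 11 measured genes, which include QHB and hox14, 0 passed (0.0213% of all tested probe sets did, so the count does not set them apart) and 3 were above 0 (51.5% of all tested), with a median of -0.09. WOX11 read 108.6 and 96.0 in the control and 79.4 to 150.3 in the CRL1 lines, which overlapped it (0.11 ± 0.25). The response regulator RR2 read 122.1 and 122.7 in the control and 99.4 to 139.0 in the CRL1 lines, a difference of -0.03 ± 0.18. SHR1 (-0.09 ± 0.17) and SCR1 (0.06 ± 0.25), counterparts of the GRAS regulators SHORT-ROOT and SCARECROW of Arabidopsis, the cytokinin oxidase CKX4 (-0.33 ± 0.27), the auxin repressors IAA13 (-0.09 ± 0.14) and IAA23 (-0.26 ± 0.22), RR1 (-0.11 ± 0.46) and CRL4 (-0.29 ± 0.33) had intervals that included 0. Of 9 genes named in earlier results as lowered after dexamethasone, 0 passed and the differences ran from -0.21 to 0.32. As read here, their responses to dexamethasone at 8 h ran from -2.29 to 0.20, so not all of them fell.

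The whole set of responsive probe sets was read as well, with the list taken from 1 time and the mock difference from the other. The size of the response and the mock difference thus shared no array. The spread behind the p-values of the list, though, came from all arrays of the CRL1 lines, those of the other time included. At 8 h 4.84% of tested probe sets rose within the CRL1 lines and 5.03% fell, and at 4 h 0.77% and 0.128%. The 858 probe sets that rose at least 2-fold at 8 h, by a median log2 of 1.62, had a median mock difference of -0.05 at 4 h, against -0.03 for all tested. Of them 0 were called (0.0152% of all tested), 42.0% were above 0 (45.7% of all tested), and 1.28% were at least 2-fold higher in the CRL1 lines (1.25% of all tested). Line by line their median was -0.04, -0.06 and -0.04 for lines 1, 2 and 3. The list thus lay near the background in each line. It was still chosen for a rise over mock in these same lines, as was the 4 h list. That choice favours probe sets that are low before dexamethasone, although the response and the difference share no array. A leak was thus not tested by these medians.

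The 194 probe sets that rose at least 2-fold at 4 h, by a median of 1.67, had a median mock difference of 0.01 at 8 h, against 0.03 for all tested. Again 0 were called (0.0122% of all tested), 50.5% were above 0 (55.9% of all tested) and 3.61%, or 7 probe sets, were at least 2-fold higher (2.76% of all tested). The medians of the single lines were -0.06, 0.03 and 0.00. Probe sets that fell at least 2-fold at 8 h, 584 of them, had a median of -0.05 at 4 h with 0 called, and the 21 that fell at 4 h had a median of 0.14 at 8 h with 0 called and 14 above 0.

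**Figure D5:**
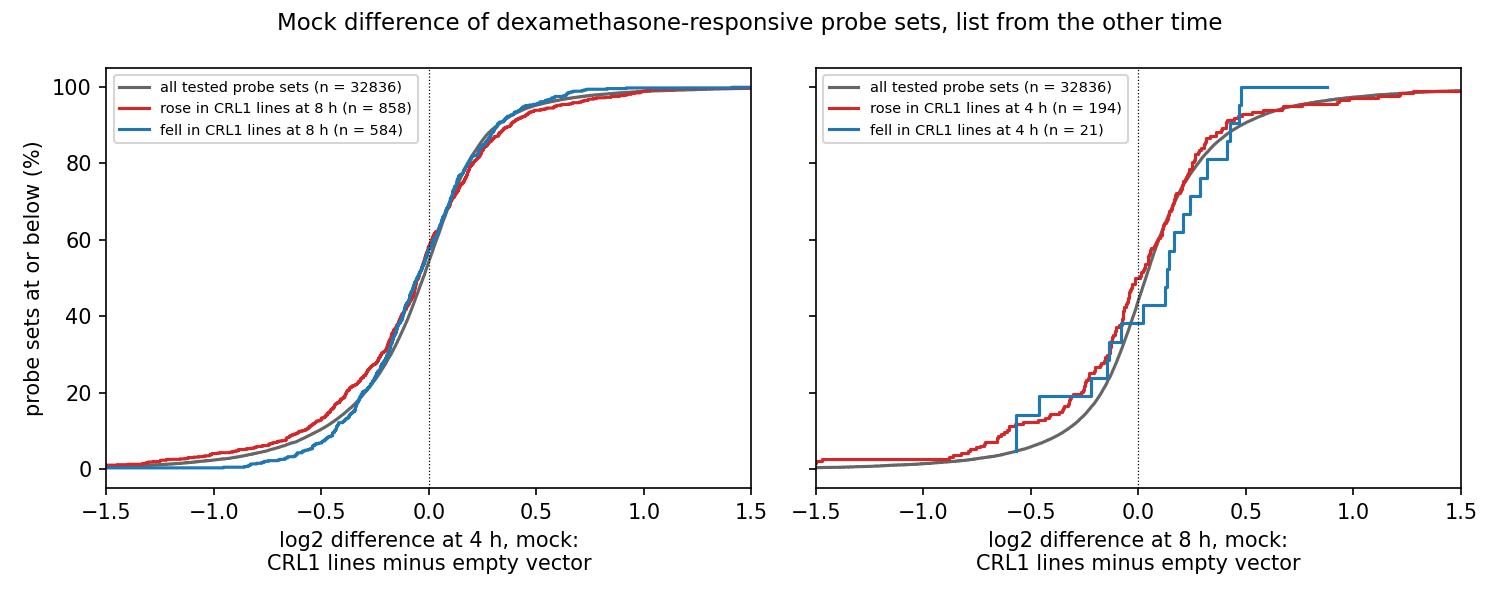
Cumulative share of probe sets (percent) by log2 mock difference, CRL1 lines minus empty vector, for probe sets that rose (red) or fell (blue) at least 2-fold after dexamethasone at the other time and for all tested probe sets (grey). The red curves run close to the grey ones at both times, with medians of -0.05 against -0.03 at 4 h and 0.01 against 0.03 at 8 h.

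Across 24 gene lists, which cover hormone pathways, cell division, cell walls, stress and tissue markers, no measured member was called over both times (0 in each list, where 0.0213% of all tested probe sets were called). The lists were made with earlier results of these arrays known, and their medians describe these lines only. Replication genes had the highest median, 0.15, with 24 of 31 above 0 and 10 of 31 above the control in all 6 arrays, against 51.5% and 8.03% of all tested probe sets. MCM4, a subunit of the replicative helicase, read 156.6 and 211.1 in the control and 239.6 to 377.0 in the CRL1 lines, without overlap (0.63 ± 0.24, adjusted p = 1.0 in limma). MCM6 of the same complex read 70.1 and 93.7 against 102.3 to 144.3 (0.55 ± 0.29). Cyclins and their kinases had a median of 0.10, with 27 of 35 above 0 and 6 of 35 above the control in all 6 arrays.

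Root markers and nutrient transporters had the lowest median, -0.25, with 6 of 37 above 0 and 6 of 37 below the control in all 6 arrays, against 51.5% and 6.2% of all tested probe sets. Their summed signal was 7217 and 7493 in the empty-vector line, 7672 and 6322 in line 1, and 4944 to 5867 in lines 2 and 3; 4 of the 37 were dim on all 8 arrays. Line 1 overlapped the control and lines 2 and 3 did not. The silicon channel gene Lsi1 read 516.5 and 488.4 in the control, 384.6 and 386.1 in line 1 and 157.1 to 245.6 in lines 2 and 3 (-0.96 ± 0.36, adjusted p = 1.0). In a pooled stem base, fewer cells of a type and less RNA per cell cannot be told apart.

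Shoot meristem and leaf markers, which the labelled stem base should hold, were each read above the dim level on 1 or more of the 8 arrays (0 of 9 and 0 of 6 were dim on all 8). The shoot meristem homeobox gene OSH1 read 833.6 and 938.9 in the control and 573.0 to 749.7 in the CRL1 lines, without overlap (-0.39 ± 0.18, adjusted p = 1.0 in limma). Of 9 shoot meristem genes 1 was above 0, with a median of -0.16, 3 were below the control in all 6 arrays (6.2% of all tested), and the summed signal was 3956 and 4106 in the control and 3172 to 3796 in the CRL1 lines. Of 6 leaf genes 2 were above 0, with a median of -0.14, and 2 lay below the control in all 6 arrays and 1 above it. The highest of them, the chlorophyll-binding protein gene CAB2R, read 6454 and 7149 in the control and 7200 to 9229 in the CRL1 lines (0.28 ± 0.14). Leaf markers summed to 16117 and 16682 in the control and 15095 to 19563 in the CRL1 lines, so the groups overlapped. The part of tissue makeup in these list medians was not tested. Cytokinin genes had a median of -0.13 with 6 of 26 above 0, and pathogenesis-related genes -0.22 with 6 of 24 above 0.

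None of the 2199 tested genes with a name was called, where 0.0213% of all tested probe sets were, so the count is near the background. Of the 20 with the smallest p among those that lay on 1 side in all 6 arrays and whose mean was above the dim level in the higher group, 10 in each direction, NAS1 and RFS are described above and the other 18 are given here as values. Above the control were the sugar phosphate mutase gene AGM1 (0.42 ± 0.12), the DNA glycosylase gene DNG701 (0.38 ± 0.13), the elongation factor gene EF-1-beta (0.31 ± 0.10), SPIN1 (0.50 ± 0.15), C3H22 (0.59 ± 0.15), BZIP06 (0.77 ± 0.25), DBS1 (0.70 ± 0.24), PP2C71 (0.50 ± 0.18), CSFL8 (0.88 ± 0.32) and the potassium transporter gene HAK17 (1.18 ± 0.38). Below it were the zinc transporter gene ZIP5, which read 96.1 and 108.8 in the control and 42.5 to 69.0 in the CRL1 lines (-0.77 ± 0.18), the lignin enzyme gene CAD8A (-1.29 ± 0.39), the potassium transporter gene HAK1 (-0.50 ± 0.17), IAA19 (-0.54 ± 0.19), CDKE-1 (-0.93 ± 0.30), MYB2 (-0.61 ± 0.20), CSLE2 (-0.51 ± 0.19) and EGY3 (-1.40 ± 0.45). ZIP5 had the lowest adjusted p of these, 0.949 in limma. EGY3 was dim in 4 of the 6 CRL1 arrays and HAK17 in the 8 h control array, at 5.0, so the size of their differences rests on the offset. With the mean of the empty-vector and untransformed lines as control, 7 of the 20 passed: HAK1 (-1.13, adjusted p = 9.7e-04, limma), CAD8A (-1.96, 0.00711), RFS (-0.82, 0.0126), ZIP5 (-0.66, 0.0292), CDKE-1 (-1.09, 0.0353), CSLE2 (-0.66, 0.0368) and AGM1 (0.40, 0.0478). CKX4 of the crown root regulators passed there too (-0.96, adjusted p = 0.0376). With that control 732 of all 32836 tested probe sets passed. It includes the empty-vector arrays by which the 20 were chosen, so these passes are no separate evidence for them.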

How the data were processed

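RNA of rice stem bases was read on Affymetrix arrays. Per the submitters' processing notes, the authors used MAS5 in Affymetrix Expression Console; the deposited values are linear signal intensity, and every array has the same trimmed mean, near 100.0. From these, log2(intensity + 1.7) was computed, 1.7 being the 20th percentile of signals. Control probe sets (123 of 57381) were left out, and 32836 of 57258 were tested, those above the array median on at least 3 of 20 arrays. limma 3.58.1 (R 4.3.3) fitted 12 group means over 20 arrays (8 residual degrees of freedom), with the line as random block (correlation 0.0718), a trended prior and Benjamini-Hochberg adjustment at 0.05. Groups of 1 array add nothing to the spread, which came from the mock and dexamethasone groups of the CRL1 lines. Line pairs and the dexamethasone response within CRL1 lines had fits of their own. On simulated arrays the correlation estimated from 3 lines came out low, which made p-values there somewhat too small. Calls near the threshold are weaker for that reason, so a fit with 0.15 was added after the data were seen. In it 6 of the 7 calls passed. Over all probe sets of the real arrays the unadjusted limma p-values leaned the other way. For both times 942 lay under 0.05, against 1642 expected, and 1251 with only the 8 mock arrays. The test may thus also have missed differences. No 2 arrays held identical values.

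Genes came from the platform annotation: 22436 probe sets had 1 gene, 95 several and 34727 none. Names came from RefSeq (ASM3414082v1) synonyms for 2348 genes, and a gene was read by 1 probe set, the brightest. Members and lists were chosen with earlier results of these data known. Named were all measured crown root regulators and dexamethasone-induced genes of the lists, every call, and, where fewer than 10 named genes were called in a direction, those with the smallest p on 1 side in all 6 arrays. Other genes named as examples of a list or of a single line were chosen after their values were seen. The labels give no scan or extraction batch, and the array number limits precision. The genome build behind the arrays is not given in the sources used here. Alternatives covered the offset, filter, scaling, block, array weights, control, line left out and line means.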

Additional observations from a re-analysis of the deposited data

How the results depend on the processing

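Counts of probe sets called over both times stayed between 5 and 9 (7 as reported) with the offset dropped or raised to the median, the filter dropped or made stricter, quantile normalization, only the 8 mock arrays, array weights, line means, each CRL1 line left out, and a line correlation of 0.15, which was chosen after seeing the data. The members changed more than the counts: of the 7, 4 were kept without line 1, 6 without line 2 and 4 without line 3. Without the replicate block, which here is the line, the counts were 7 over both times, 5 at 4 h, 5 at 8 h, 0 for the change between times and 685 in the dexamethasone arrays. Line numbers of different constructs do not pair samples, so no pairing across groups was fitted. With the mean of the empty-vector and untransformed lines as control, the counts became 732 over both times, 69 at 4 h and 182 at 8 h, and 4212 in the dexamethasone arrays. Among the uncalled probe sets named, 12 passed over both times with that control, the 4 of the reporters included, and none under the other settings. At 4 h the stricter filter gave 2 calls, and leaving out a line gave 3 to 4. At 8 h no offset gave 8 and array weights 9. In the dexamethasone arrays leaving out a line gave 271 to 506. The stricter filter gave 38 and 27 calls between the empty vector and CRL1 lines 1 and 3, out of 16320 probe sets tested. The counts as reported were 61 and 49 out of 32836, so the fall in number is not a fall in share. The median mock difference at 4 h of probe sets that rose at 8 h was -0.0279 with no fold minimum and -0.0350 to -0.0508 with a line left out. Os.56053.1.S1_at missed the threshold under no filter, the stricter filter, quantile normalization, the line correlation of 0.15, line means and each line left out; LOC4327632 did so with line means (adjusted p = 0.108).

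Signs turned only for uncalled differences. With both control lines they were 0.078 for IAA13, 0.48 for RR1, 0.31 for RR2, -0.65 for WOX11, -0.23 for CBL4, -0.11 for CYP734A4, -0.0143 for Cel9A, -0.20 for GH3-8 and 0.0388 for proT. With a CRL1 line left out the differences ran from -0.101 to 0.0285 for RR2, -0.0558 to 0.241 for WOX11, -0.0714 to 0.403 for Cel9A, -0.0636 to 0.106 for GH3-8, -0.10 to 0.12 for GLU8, -0.0123 to 0.135 for IMCEL2, -0.13 to 0.22 for Roc4 and -0.0731 to 0.0472 for proT. Reporter A was -0.18 under quantile normalization, and proT 0.0001 with the offset at the median and 0.0099 with array weights. The cause of these moves was not tested. Dim signals limit what could be read for 6 of the 15 induced genes.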
